A study of Gossypium hirsutum with 120 samples.

Results

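Cell wall and vacuolar invertases split sucrose into glucose and fructose, and 21 of the 49663 rows of the cotton expression table belonged to them. A row was taken where its best Arabidopsis match was 1 of 8 genes, the cell wall invertases CWINV1 (AT3G13790), CWINV2 (AT3G52600), CWINV3 (AT1G55120), CWINV4 (AT2G36190), CWINV5 (AT3G13784) and CWINV6 (AT5G11920) and the vacuolar invertases VI1 (AT1G62660) and VI2 (AT1G12240). Of these 8 genes, 4 were the match of at least 1 row: CWINV4 of 5 rows, CWINV1 of 8, CWINV2 of 2 and VI2 of 6. CWINV3, CWINV5, CWINV6 and VI1 were the match of none, although 2 of the CWINV1-matched rows carry the description CWINV6-like. The 15 cell wall rows and 6 vacuolar rows were followed separately. RefSeq for assembly Gossypium_hirsutum_v2.1 gave a gene for 14 of them, and the others are named by their protein. Protein versions were ignored in this match, and 8 of the 21 rows carried the same version as RefSeq. The table names no genome build, so no coordinates are given.

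Cell wall invertases work outside the cell, in the apoplast, where they cleave sucrose and so keep its concentration low on the receiving side of sucrose transport. In Arabidopsis CWINV4 is required for nectar production, and CWINV3 and CWINV6 act on fructans rather than sucrose. Vacuolar invertases cleave sucrose stored in the vacuole and are known for their part in cell expansion. Both kinds are held in check by small inhibitor proteins, named C/VIF in Arabidopsis.

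The plants were Gossypium hirsutum TM-1, an Upland cotton, grown in chambers, and no genotype or treatment distinguished the groups. RNA was measured in 4 nectary types, all built of multicellular papillae: the floral nectary at the inner base of the calyx, the bracteal nectary at the base of the bracts, the circumbracteal nectary on the outer calyx, and the foliar nectary on the leaf midrib. Each nectary was sampled with the tissue next to it, before secretion (presecretory), during it (secretory) or after it (postsecretory). For the floral nectary these stages were the day before, the day of and the day after flower opening. For the bracteal and circumbracteal nectaries they were young squares (presecretory) and developing bolls (postsecretory). For the foliar nectary they were young leaves, larger leaves with nectar, and mature leaves without it. The 51 RNA samples fell into 20 groups. Floral presecretory nectary, both bracteal presecretory groups and both foliar presecretory groups had 2 samples each, the secretory foliar nectary and its adjacent tissue 1 each, and all other groups 3. Secretory bracteal and circumbracteal nectaries were not analysed here. Each nectary sample was a pool, of about 5 nectaries by the sample records, while the study's methods give other pool sizes. Whether pools came from separate plants is not given, so p-values measure the spread between these pools.

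Total signal per sample ran from 7489375 to 16203450 (median 10187922), with 30965 to 48112 rows above 0. The circumbracteal nectary samples had 30965 to 43087 rows above 0, including the lowest counts, so low or 0 values there may reflect fewer rows detected. Levels below are values summed over both sequencing runs and scaled to a common upper quartile. They are called normalized values and behave as length-scaled read counts. Shares and ratios between rows below rest on that scaling, which was inferred from the values. Replicates of the circumbracteal nectary were the most variable, with a residual SD 1.58 times the pooled SD at the presecretory and 1.37 times at the postsecretory stage, against 0.651 to 1.20 times in the other groups. Of the nectary markers, 2 SWEET9-matched rows, whose Arabidopsis match exports sucrose from nectaries, summed to 28.5 to 71.6 in presecretory, 176 to 378 in secretory and 0 to 14.0 in postsecretory floral nectary samples. They were 0 to 4.81 in floral adjacent tissue and listed at 0 in every extrafloral sample. The study itself reports SWEET9 expression in extrafloral nectaries, for the bracteal nectary also by RT-qPCR. Secretory bracteal and circumbracteal nectaries were not part of these samples, so the zeros do not show that extrafloral nectaries lack SWEET9. The reason for the difference was not tested. The single row for CRC, a regulator of nectary development, was 0 to 5.64 in floral nectary samples and 1.86 to 33.6 in floral adjacent tissue, so it did not mark the floral nectary in these files. Phloem markers (30 rows) summed to 1084 to 2080 in floral nectary samples and 1860 to 8849 in floral adjacent tissue. The 2 anther and pollen marker rows stayed at 28.4 or below in every sample.

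CWINV4 rows held most of the invertase signal in the floral, bracteal and circumbracteal nectaries. The 5 rows held 99.0% ± 0.460 (SD, n = 2) of the summed invertase signal in presecretory, 95.2% ± 2.03 (n = 3) in secretory and 82.8% ± 6.98 (n = 3) in postsecretory floral nectary. They held 94.2% ± 0.0717 (n = 2) and 90.1% ± 5.51 (n = 3) in the pre- and postsecretory bracteal nectary, and 86.3% ± 8.13 and 88.2% ± 4.92 (n = 3 each) in the circumbracteal nectary. In the foliar nectary they held 55.4% ± 23.5 (n = 2), 52.2% (n = 1) and 30.7% ± 9.44 (n = 3) from presecretory to postsecretory, and CWINV1 rows held 57.8% ± 3.93 (n = 3) at the last stage. Adjacent tissues differed in which match held most. Vacuolar rows held 70.7% ± 8.01 (n = 3) of the signal beside the presecretory floral nectary, CWINV4 rows 77.6% ± 9.74 (n = 3) beside the secretory floral nectary, and CWINV1 rows 64.5% ± 6.50, 73.7% ± 18.9 and 90.3% ± 4.01 (n = 3 each) beside the postsecretory bracteal, circumbracteal and foliar nectaries. Beside the presecretory bracteal and circumbracteal nectaries CWINV4 rows held 49.9% ± 56.2 (n = 2) and 45.7% ± 24.4 (n = 3).

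**Figure D1:**
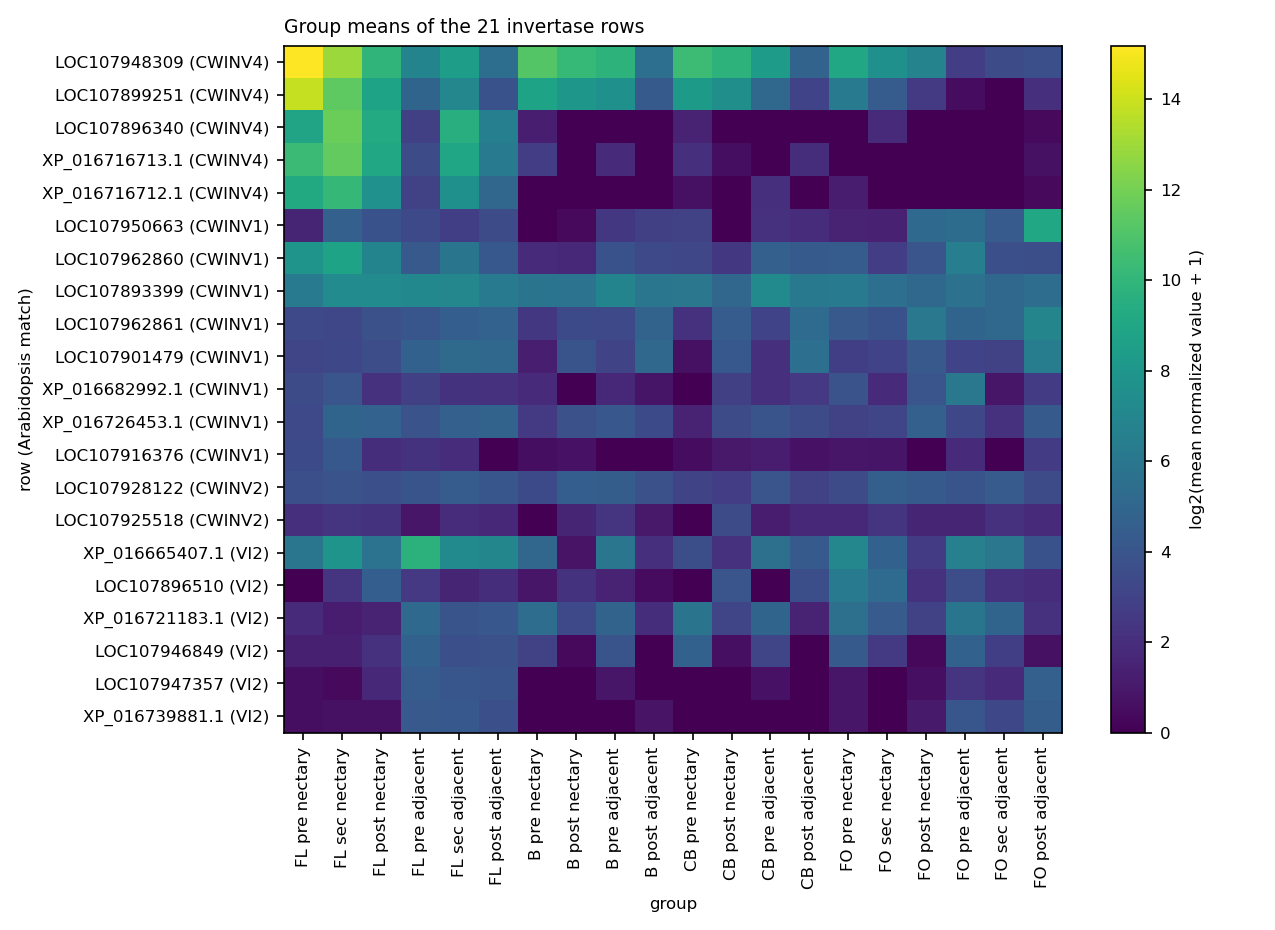
Mean normalized value of the 21 invertase rows in the 20 groups, as log2 of the mean plus 1. FL, B, CB and FO are floral, bracteal, circumbracteal and foliar, and pre, sec and post the stages. CWINV4-matched LOC107948309 was read in every nectary type, with its highest mean in presecretory floral nectary and its lowest nectary mean in postsecretory foliar nectary. The 3 further CWINV4-matched rows that were high in floral nectary were low in presecretory floral adjacent tissue. They were at 9.52 or below in each of the 34 extrafloral samples.

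A row was called where its limma adjusted p was under 0.05 and its change at least 1.5-fold. Between nectary and adjacent tissue, 6 of the 21 rows were called higher and 4 lower at the presecretory floral stage, where 3.67% and 4.32% of all 48846 rows tested were called in those directions. At the secretory floral stage 4 were higher (3.05% of all rows) and 4 lower (5.35%), and at the postsecretory floral stage 2 were higher (1.77%) and 3 lower (2.03%). Every lower call in the flower was a vacuolar row, and every higher call a cell wall row. The extrafloral nectaries gave fewer calls: 1 higher in the postsecretory bracteal nectary (1.28% of all rows called higher), 2 higher in the postsecretory circumbracteal nectary (1.61%), 1 higher in the presecretory foliar nectary (0.586%) and 2 lower in the postsecretory foliar nectary (0.835% called lower). No row was called by limma in the presecretory bracteal nectary (0.0614% of all rows) or the presecretory circumbracteal nectary (7.16%), where 2 and 7 rows had an unadjusted p under 0.05. For the 5 CWINV4 rows the median log2 fold change was 7.28, 2.62 and 2.93 over the 3 floral stages, beside -0.03, -0.10 and -0.03 over all rows. For the 6 vacuolar rows it was -3.52, -2.55 and -2.34. In the circumbracteal comparisons the median of all rows was itself -0.27 and -0.26.

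LOC107948309 and LOC107899251, both described as insoluble isoenzyme 1-like and matched to CWINV4, formed the pair present in several nectary types. LOC107948309 had normalized values of 56496 and 18285 in presecretory floral nectary, 4874, 9870 and 7893 at the secretory and 693, 1561 and 691 at the postsecretory stage. In the tissue beside it the values were 279, 55.8 and 12.1, then 16.8, 422 and 641, then 5.94, 41.3 and 85.4. At each floral stage every nectary sample lay above every adjacent sample. The log2 fold change was 9.08 (SE 1.27, adjusted p = 4.45e-06) before, 5.42 (adjusted p = 0.00127) during and 4.95 (adjusted p = 0.00583) after secretion, by limma. The first was called under all 12 alternatives run, and the last was not called without postsecretory floral adjacent replicate 1 (adjusted p = 0.0933). In these tissue samples a larger share of cells with the transcript and more transcript per cell cannot be told apart.

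In the bracteal nectary LOC107948309 was at 2603 and 1823 before secretion and 1616, 1165 and 703 after it. Bracteal adjacent tissue gave 65.8, 50.4 and 19.3 after secretion, apart from the nectary samples (log2 fold change 4.74, adjusted p = 0.0124). The call was lost without postsecretory bracteal nectary replicate 1 or 2 (adjusted p = 0.0657 and 0.0516) or adjacent replicate 3 (0.0787). Before secretion 1 adjacent sample was at 39.0 and the other, labelled replicate 3, at 1781, close to the nectary samples. The log2 fold change there was 3.03 with a 95% interval of 0.22 to 5.84 (adjusted p = 0.851). The marker rows do not bear on that sample: CRC was at 20.9 in it and 31.0 in the other adjacent sample, against 19.3 and 23.3 in the nectary samples, and SWEET9 was listed at 0 in all 4. Whether it held nectary tissue was not tested.

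In the circumbracteal nectary the row was at 650, 2438 and 1024 before and 809, 555 and 1400 after secretion. Adjacent tissue was at 250, 58.2 and 665, then 29.9, 5.88 and 48.1. The groups overlapped before secretion (log2 fold change 2.45, 95% interval 0.16 to 4.75, adjusted p = 0.19) and were apart after it (5.29, adjusted p = 0.00317). In the foliar nectary it was at 825 and 277 before, 197 during and 101, 177 and 53.6 after secretion. Foliar adjacent tissue was at 5.17 and 6.47, then 10.5, then 4.75, 24.6 and 7.44. Every foliar nectary sample exceeded every foliar adjacent sample. The presecretory difference was called (6.14, adjusted p = 0.0181), but not without any 1 of its 4 samples (adjusted p 0.0725 to 0.287). The postsecretory one was not called (3.22, 95% interval 0.92 to 5.51, adjusted p = 0.194).

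**Figure D2:**
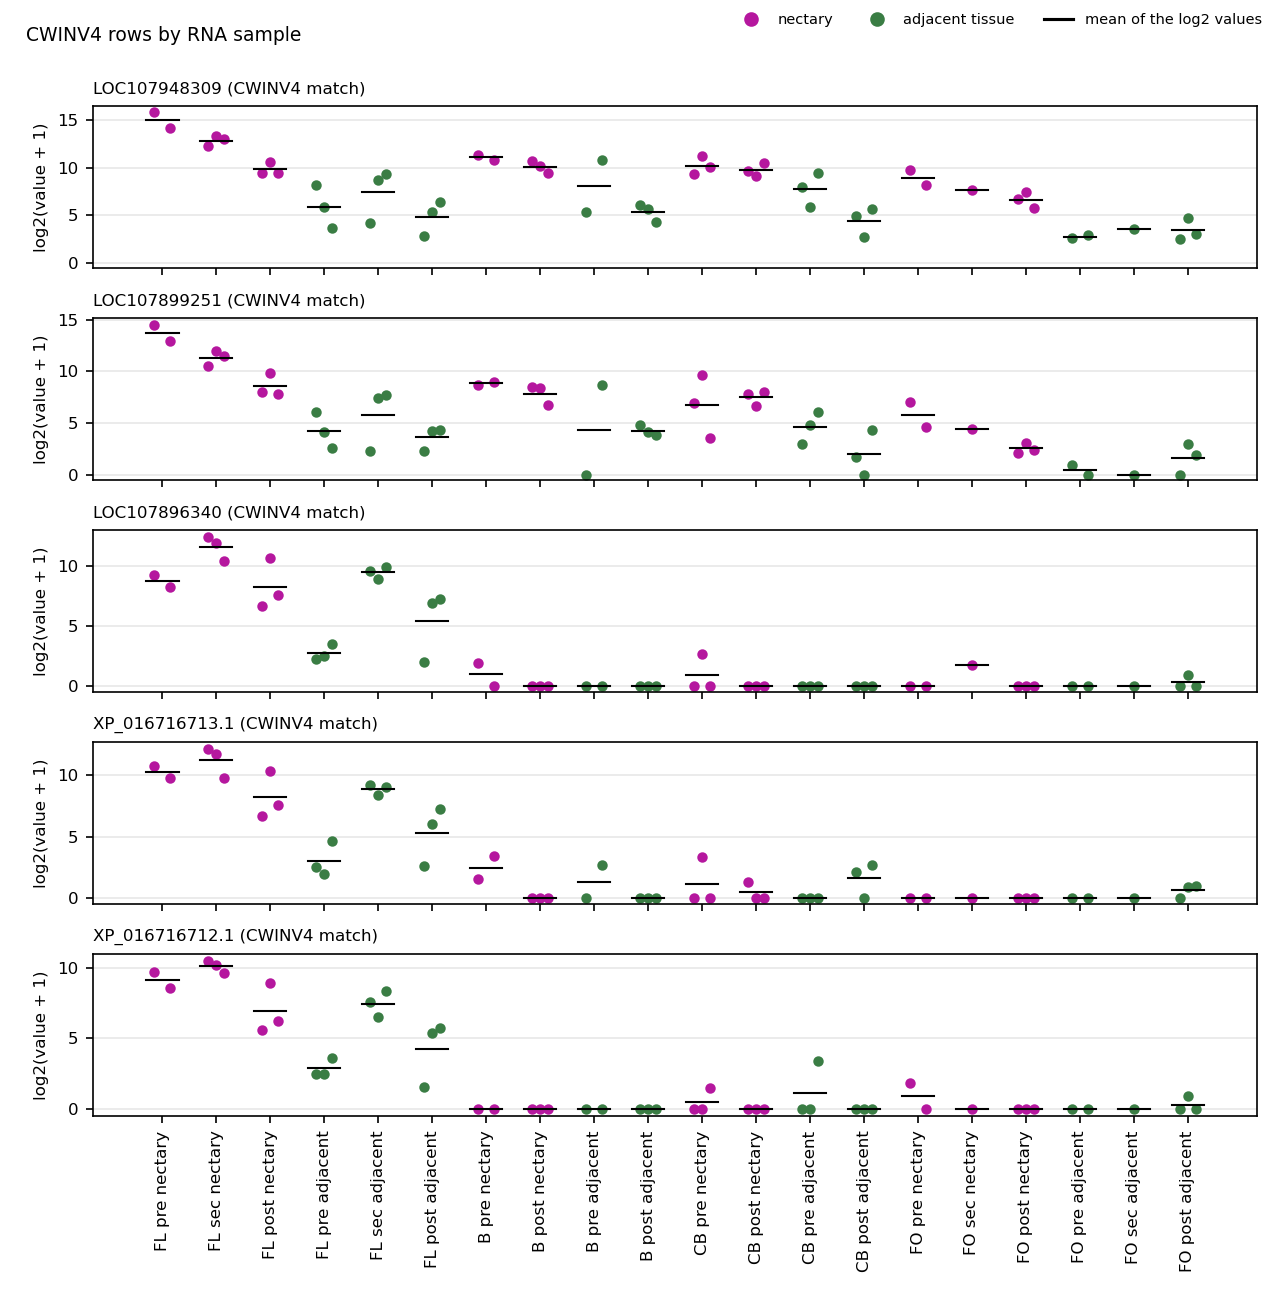
Log2 of the normalized value plus 1 of the 5 CWINV4-matched rows in each RNA sample, 1 point a sample, with a bar at the mean of each group and the groups along the horizontal axis. LOC107948309 reached a normalized value of 56496 in presecretory floral nectary, and all its nectary points lay above its adjacent points in the floral and foliar groups.

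Ordered by mean, LOC107948309 ran from presecretory floral nectary (37391) through secretory floral nectary (7545), presecretory bracteal (2213), presecretory circumbracteal (1371), postsecretory bracteal (1161), postsecretory floral (982), postsecretory circumbracteal (922) and presecretory foliar (551) to secretory (197) and postsecretory foliar nectary (111). Replicates of neighbouring groups overlapped from presecretory bracteal down to presecretory foliar. Within the floral nectary the secretory stage was lower than the presecretory one by 2.15 on the log2 scale (95% interval of the difference -4.71 to 0.41, adjusted p = 0.442). The postsecretory stage was lower than the secretory one by 2.99 (interval -5.29 to -0.70, adjusted p = 0.145). Neither step was called, although the samples of the 3 stages did not overlap.

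LOC107899251 was also highest in presecretory floral nectary, and lower than LOC107948309. It was at 22336 and 7830, then 1449, 4013 and 2841, then 262, 885 and 222 in the floral nectary. Floral adjacent tissue gave 64.8, 16.8 and 5.17, then 4.01, 173 and 207, then 3.96, 17.3 and 19.2. The log2 fold changes were 9.42 (adjusted p = 9.29e-05), 5.49 (adjusted p = 0.0103) and 4.93 (adjusted p = 0.0407). The secretory call was lost without nectary replicate 2 (adjusted p = 0.056) or adjacent replicate 1 (0.159). The postsecretory call was lost without any 1 of its 6 samples (adjusted p 0.0702 to 0.213). The row was at 413 and 493, then 349, 325 and 104 in the bracteal nectary, where adjacent tissue was at 0 and 396, then 27.3, 16.4 and 13.6. In the circumbracteal nectary it was at 124, 783 and 10.7, then 217, 102 and 251, beside 6.93, 26.2 and 66.5, then 2.22, 0 and 19.3. The postsecretory circumbracteal difference was called (5.47, adjusted p = 0.0161), but not without nectary replicate 1 (adjusted p = 0.0534) or adjacent replicate 2 (0.113). In the foliar nectary it was at 126 and 22.8, then 20.4, then 3.35, 7.48 and 4.39, and in foliar adjacent tissue at 7.02 or below.

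Across the 51 samples the log2 values of the pair had a Pearson r of 0.939, over samples that share tissue and stage. Their ratio was not the same everywhere. The mean of LOC107948309 was 2.15 to 2.73 times that of LOC107899251 in the floral nectary, 4.48 to 4.89 times in the bracteal and circumbracteal nectaries, and 7.40 to 21.8 times in the foliar nectary. The sequences of the pair were not compared. Near-identical copies can exchange reads in counting, so the split between the rows is uncertain.

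The other CWINV4 rows, LOC107896340 and the proteins XP_016716713.1 and XP_016716712.1 (described as isoforms X2 and X1), were read in the flower. LOC107896340 was at 608 and 311 in presecretory, 5475, 3811 and 1353 in secretory and 99.6, 1595 and 190 in postsecretory floral nectary. The tissue beside it gave 3.65, 4.65 and 10.3, then 791, 482 and 957, then 2.97, 118 and 153. In the 34 extrafloral samples it was listed at 0 in 30 and reached at most 5.32. XP_016716713.1 was at 1754 and 901, then 4511, 3459 and 877, then 99.6, 1337 and 187, with adjacent values of 4.56, 2.79 and 24.1, then 594, 341 and 532, then 4.95, 62.4 and 152. XP_016716712.1 was at 833 and 367, then 1410, 1156 and 773, then 47.5, 485 and 73.2, with adjacent values of 4.56, 4.65 and 11.2, then 188, 88.9 and 319, then 1.98, 41.3 and 50.8. In extrafloral samples these proteins stayed at 9.52 or below and were listed at 0 in 25 and 30 of the 34. The 3 rows had Pearson r of 0.970 or more for LOC107896340 with each of the others over the 51 samples, most of which were near 0 for all of them. Reads of the isoforms cannot be told apart with certainty.

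Before secretion all 3 were higher in the nectary than beside it, by 6.03 (adjusted p = 7.58e-05) for LOC107896340, 7.28 (1.65e-05) for XP_016716713.1 and 6.25 (1.7e-05) for XP_016716712.1 on the log2 scale, and these limma calls held under all 12 alternatives. At flower opening the adjacent tissue held them too. From the presecretory to the secretory stage they rose in the adjacent tissue by 6.74 (adjusted p = 1.18e-05), 5.88 (0.000305) and 4.60 (0.00104), the only 3 invertase rows called there, where 1.12% of all rows were called higher. The calls held under all 12 alternatives. In the nectary the same step gave 2.81 for LOC107896340 (95% interval 0.76 to 4.85, adjusted p = 0.112). No invertase row was called in the nectary at that step by limma, with 1 row under an unadjusted p of 0.05, where 4.70% of all rows were called. At the secretory stage nectary and adjacent tissue differed by 2.09 for LOC107896340 (interval 0.26 to 3.92, adjusted p = 0.173), with every nectary sample above every adjacent one. For XP_016716712.1 they differed by 2.62 (adjusted p = 0.0453, and 0.0514 with replicate number as a block).

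**Figure D3:**
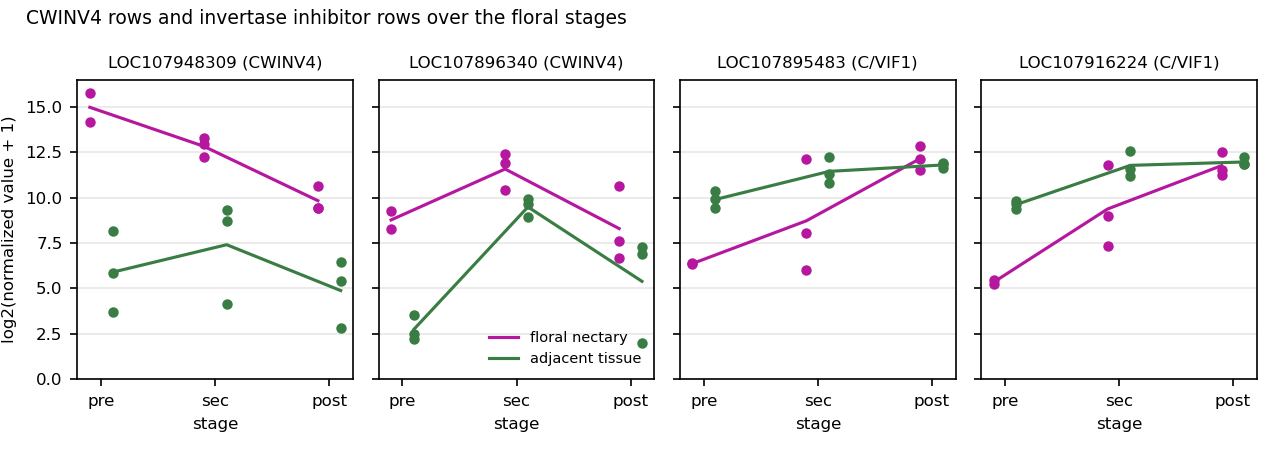
Log2 of the normalized value plus 1 of LOC107948309, LOC107896340 and 2 rows of the inhibitor C/VIF1 at the 3 floral stages in nectary and adjacent tissue, 1 point a sample and lines through the group means. LOC107948309 was highest before secretion (normalized values 56496 and 18285) and LOC107896340 at flower opening (5475, 3811 and 1353), while both C/VIF1 rows had their lowest mean in presecretory nectary.

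After secretion LOC107896340 fell in the nectary by 3.28 (adjusted p = 0.0283) and XP_016716712.1 fell by 3.17 (adjusted p = 0.0238), the only 2 invertase rows called at that step, against 1.51% of all rows called lower. Both calls were lost without secretory nectary replicate 1 or 2 or postsecretory replicate 1 or 3 (adjusted p 0.1 to 0.227), and postsecretory replicate 2, at 1595 for LOC107896340, lay within the secretory range. In the adjacent tissue LOC107896340 fell by 4.10 (adjusted p = 0.0416), the single invertase call against 0.147% of all rows called lower. That call was lost without any 1 of its secretory samples or postsecretory replicate 1 (adjusted p 0.102 to 0.82). The 3 rows together held 4.75% ± 1.24 (SD, n = 2) of the invertase signal in presecretory, 39.2% ± 20.0 (n = 3) in secretory and 31.8% ± 18.8 (n = 3) in postsecretory floral nectary. In secretory floral adjacent tissue they held 59.1% ± 18.2 (n = 3).

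The 8 CWINV1 rows had no single place. LOC107962860 was a floral nectary row, at 287 and 179, then 542, 643 and 134, then 60.5, 240 and 50.2, beside 21.0, 18.6 and 13.8, then 62.6, 45.3 and 69.8, then 11.9, 14.4 and 25.9 in adjacent tissue. Nectary samples lay above adjacent ones at each stage. The presecretory difference was 3.62 (95% interval 1.36 to 5.89, adjusted p = 0.0363) and was called in only 5 of 12 alternatives, being lost without any 1 of its 5 samples (adjusted p 0.0658 to 0.302). In the extrafloral nectaries the row was low. It was at 2.76 and 2.11, then 1.16, 5.00 and 0.959 in the bracteal nectary, with 26.6 and 0, then 14.9, 13.1 and 0 adjacent. It was at 1.22, 23.9 and 0, then 1.48, 10.9 and 1.05 in the circumbracteal nectary, with 16.8, 38.8 and 17.3, then 29.9, 17.6 and 7.49 adjacent. It was at 27.0 and 14.0, then 5.71, then 13.4, 15.0 and 17.6 in the foliar nectary, with 122 and 57.5, then 12.3, then 17.1, 11.4 and 6.51 adjacent. None of these extrafloral differences was called.

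LOC107950663 was a row of mature leaf. Beside the postsecretory foliar nectary it was at 318, 755 and 600, and in that nectary at 20.1, 82.3 and 6.15. Beside the foliar nectary it was at 12.9 and 68.8 before and 19.3 during secretion, and in the nectary at 2.61, 0.878 and 1.63 in those stages. In the floral samples it was at most 31.6 except for 1 secretory nectary sample at 69.3, and in bracteal and circumbracteal samples at most 19.7. The nectary was lower than the adjacent leaf by 4.50 on the log2 scale after secretion, a log2 fold change of -4.50 (95% interval -6.95 to -2.05, adjusted p = 0.0369). The adjacent leaf rose by 4.08 from the presecretory stage (adjusted p = 0.0366). The first call was kept in 7 of 13 alternatives and lost without nectary replicate 1 or 3 or any 1 adjacent sample (adjusted p 0.063 to 0.308). The second was lost without presecretory replicate 1 or postsecretory replicate 2 or 3 (adjusted p 0.0901 to 0.438). The 4 mesophyll marker rows, all matched to LHCB2.1, summed to 1642 to 7325 in postsecretory foliar adjacent tissue and 1266 to 2922 in the nectary, and to 9944 to 26209 in presecretory adjacent tissue. Their part in these differences was not tested.

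**Figure D4:**
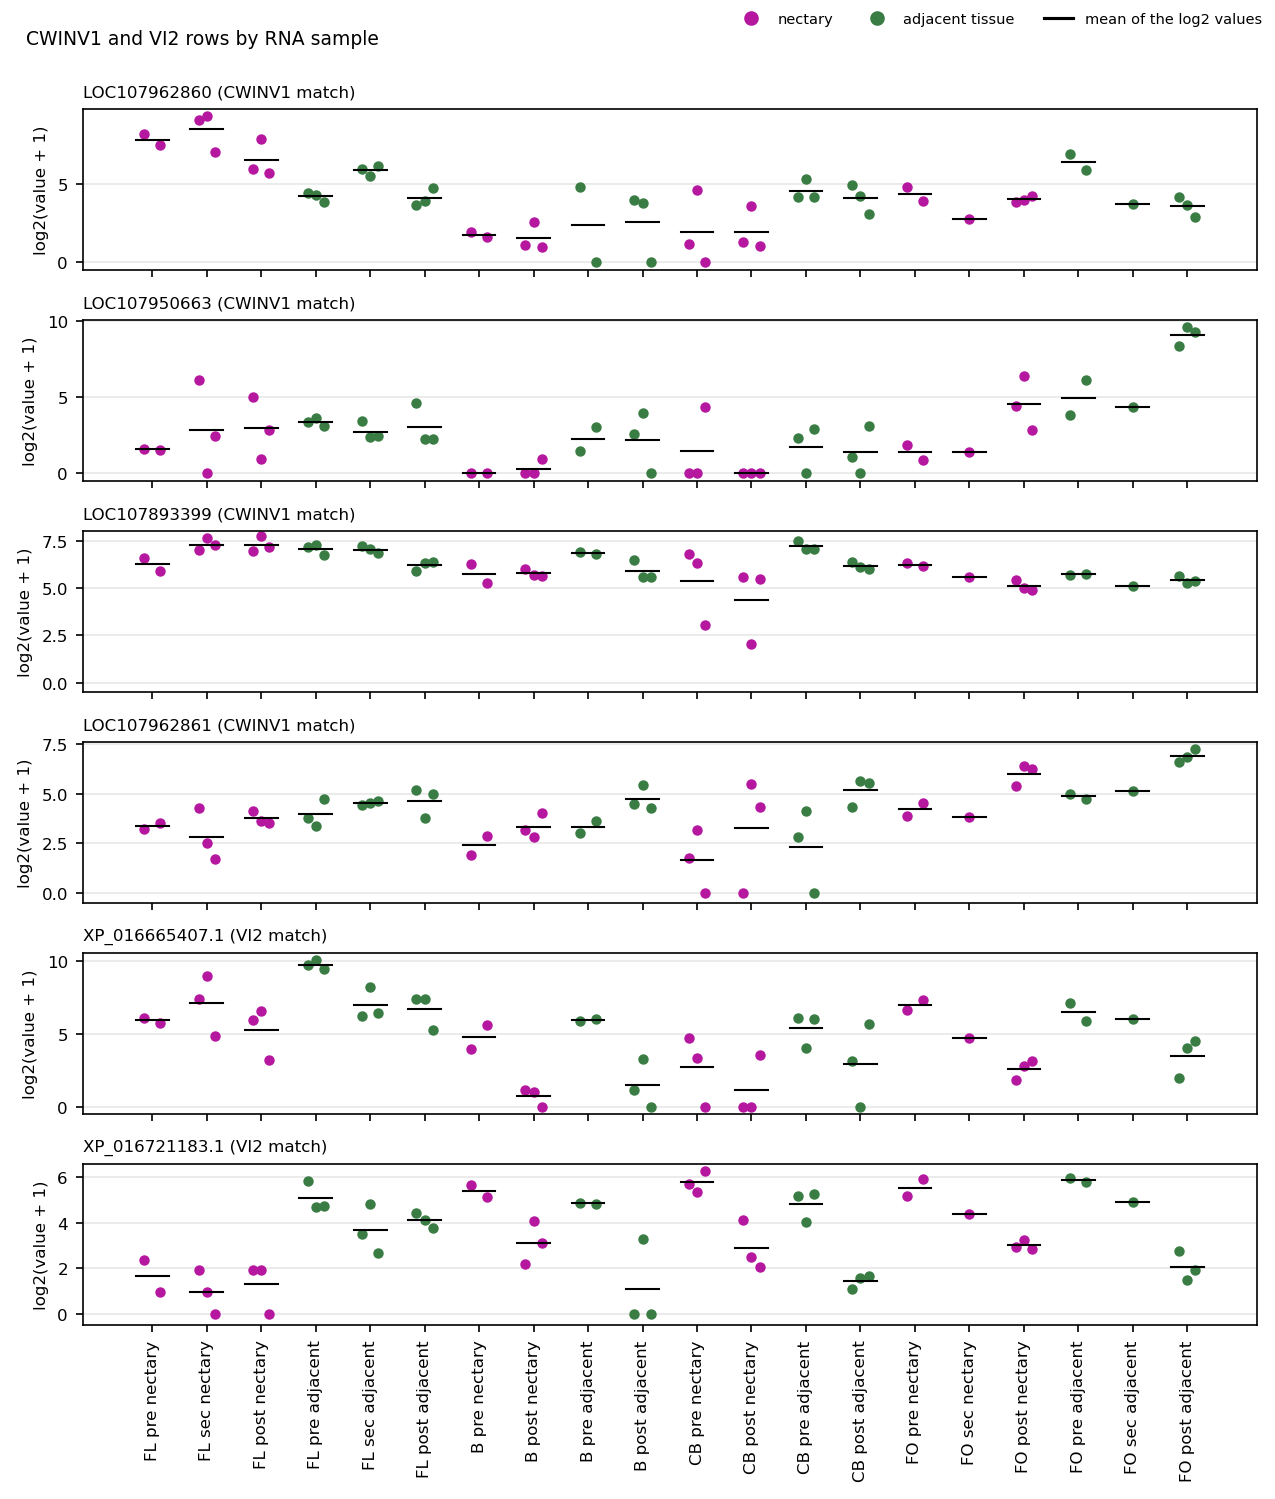
Log2 of the normalized value plus 1 of 4 CWINV1-matched and 2 VI2-matched rows in each RNA sample, 1 point a sample, with a bar at the mean of each group. LOC107962860 was highest in floral nectary (to a normalized value of 643), LOC107950663 beside the postsecretory foliar nectary (to 755), and XP_016665407.1 beside the presecretory floral nectary (to 1067).

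LOC107893399, described as CWINV6-like, was above 0 in every sample from 3.10 to 211. It was at 95.1 and 58.9, then 127, 197 and 151, then 122, 211 and 140 in the floral nectary, and at 144, 154 and 106, then 146, 130 and 114, then 58.4, 79.6 and 81.5 beside it. Bracteal nectary gave 75.6 and 37.0, then 64.0, 50.0 and 48.9, and its adjacent tissue 118 and 110, then 89.3, 47.1 and 47.7. Circumbracteal nectary gave 110, 78.4 and 7.16, then 47.3, 3.10 and 42.9, and its adjacent tissue 176, 132 and 133, then 80.9, 67.6 and 62.0. Foliar nectary gave 77.4 and 69.4, then 46.5, then 41.1, 30.7 and 29.0, and adjacent leaf 50.8 and 52.6, then 33.4, then 48.4, 37.7 and 40.0. The 2 lowest values were circumbracteal nectary samples, presecretory replicate 3 and postsecretory replicate 2. These samples also had the fewest rows above 0 of all samples, 30965 and 34819. No nectary to adjacent difference of the row was called.

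LOC107962861, which lies next to LOC107962860 in the RefSeq annotation with no annotated gene between them, did not follow its neighbour into the floral nectary. It was at 8.18 and 10.4, then 18.2, 4.75 and 2.27, then 16.8, 11.3 and 10.5 there, and at 9.31 to 35.6 beside it. It was highest in postsecretory adjacent leaf, at 94.0, 114 and 151, with 40.2, 82.3 and 73.7 in the nectary of that stage. At earlier foliar stages it was 13.1 to 34.2, and in bracteal and circumbracteal samples 0 to 49.0. Beside the circumbracteal nectary it rose from 5.94, 16.5 and 0 to 18.8, 49.0 and 46.0 (log2 fold change 2.86, adjusted p = 0.0417). That call was kept in 5 of 12 alternatives and lost without presecretory replicate 1 or 3 or postsecretory replicate 2 or 3, with adjusted p from 0.0643 to 0.37.

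The remaining CWINV1 rows were low. LOC107901479 and XP_016682992.1, described as CWINV1-like isoform X2 and isoform X1, went opposite ways in adjacent leaf. The descriptions do not say whether they belong to 1 gene. If they do, their reads cannot be told apart with certainty. LOC107901479 rose from 6.03 and 8.90 before to 53.2, 81.6 and 107 after secretion (3.23, adjusted p = 0.0284), and XP_016682992.1 fell from 79.3 and 54.2 to 8.55, 4.39 and 3.72 (-3.42, adjusted p = 0.0248). Each call was lost without either presecretory sample or without postsecretory replicate 2 or 3 (adjusted p 0.0628 to 0.219). LOC107901479 also rose with stage in circumbracteal nectary (3.00, adjusted p = 0.0159) and adjacent tissue (3.95, adjusted p = 0.004). The nectary call was lost without postsecretory nectary replicate 1 or 3 (adjusted p = 0.053 and 0.125), and the adjacent call without presecretory replicate 3 (0.0549). XP_016726453.1, the other CWINV6-like row, ran from 0 to 52.2 and was highest in secretory floral nectary. LOC107916376 was at 20.1, 23.7 and 7.94 in secretory floral nectary against 3.21, 0.824 and 4.47 beside it. That difference of 2.26 (adjusted p = 0.0459) became 0.0521 as an adjusted p with replicate number as a block, and was lost without nectary replicate 1 or 2 or adjacent replicate 1 or 2 (adjusted p 0.0864 to 0.263). The 2 CWINV2 rows, LOC107928122 and LOC107925518, reached at most 33.7 and 27.9, and neither was called in any comparison.

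The 6 vacuolar rows were matched to VI2, and 4 of them were called lower in the floral nectary than beside it at 1 or more stages. XP_016665407.1, the most abundant, was at 851, 1067 and 707 beside the presecretory floral nectary, 72.2, 298 and 86.8 at flower opening and 163, 167 and 37.4 after it. The nectary itself gave 68.5 and 52.2, then 166, 508 and 28.4, then 61.4, 92.1 and 8.36. The presecretory groups did not overlap, while the secretory and postsecretory groups did. The presecretory difference of -3.83 (95% interval -6.47 to -1.18) had an adjusted p of 0.0634 and was not called. In the bracteal nectary the row was at 14.7 and 48.6, then 1.16, 1.00 and 0, and beside it at 57.6 and 63.8, then 1.24, 8.76 and 0. In the circumbracteal nectary it was at 25.7, 9.31 and 0, then 0, 0 and 10.5, and beside it at 65.3, 15.5 and 65.1, then 7.75, 0 and 49.2. In the foliar nectary it was at 97.4 and 161, then 25.3, then 2.52, 5.82 and 7.90, and beside it at 135 and 56.6, then 64.1, then 2.85, 14.9 and 21.4.

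The lower vacuolar rows carried the calls. XP_016721183.1 was at 4.09 and 0.950, then 2.74, 0.950 and 0, then 2.79, 2.82 and 0 in the floral nectary. Beside it the row was at 55.7, 25.1 and 25.8, then 10.4, 27.2 and 5.37, then 20.8, 16.3 and 12.5. The log2 fold changes were -3.44 (adjusted p = 0.00556), -2.71 (0.0151) and -2.82 (0.0198). They were lost, respectively, without presecretory nectary replicate 2 (adjusted p = 0.129), without secretory nectary replicate 2 or 3 or adjacent replicate 2 (0.0523 to 0.149), and without postsecretory nectary replicate 3 or adjacent replicate 1 or 2 (0.0644 to 0.189). In the presecretory extrafloral nectaries the same row was not low: 49.8 and 33.8 in bracteal, 51.4, 39.9 and 77.0 in circumbracteal and 34.8 and 59.7 in foliar nectary.

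LOC107947357 and XP_016739881.1, both described as soluble isoenzyme I-like, were nearly confined to floral and leaf adjacent tissue. LOC107947357 was at 19.2, 31.6 and 10.3, then 8.82, 32.9 and 5.37, then 24.7, 8.63 and 10.6 beside the floral nectary, and at most 5.23 in it. XP_016739881.1 was at 18.2, 27.9 and 7.75, then 16.0, 20.6 and 14.3, then 17.8, 12.5 and 5.76 beside it, and at most 1.90 in it. The log2 fold changes for LOC107947357 were -3.81 (adjusted p = 0.000982), -3.36 (0.00113) and -2.44 (0.0351), and for XP_016739881.1 -3.60 (0.00192), -3.64 (0.000476) and -3.08 (0.00541). Both presecretory calls were lost without nectary replicate 1 (adjusted p = 0.0572 and 0.0828) and both postsecretory ones without adjacent replicate 1 (0.231 and 0.05). The postsecretory call of LOC107947357 was also lost without nectary replicate 1 or 2 or adjacent replicate 3 (adjusted p 0.0657 to 0.323). Beside the postsecretory foliar nectary LOC107947357 was at 10.4, 8.78 and 52.1 against 1.68, 0 and 0 in it (-3.71, adjusted p = 0.000847). XP_016739881.1 was at 5.70, 1.76 and 55.8 against 0.838, 0.831 and 1.76 there (-2.27, adjusted p = 0.0909, and 0.0447 with replicate number as a block). In bracteal and circumbracteal samples neither row exceeded 2.27.

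**Figure D5:**
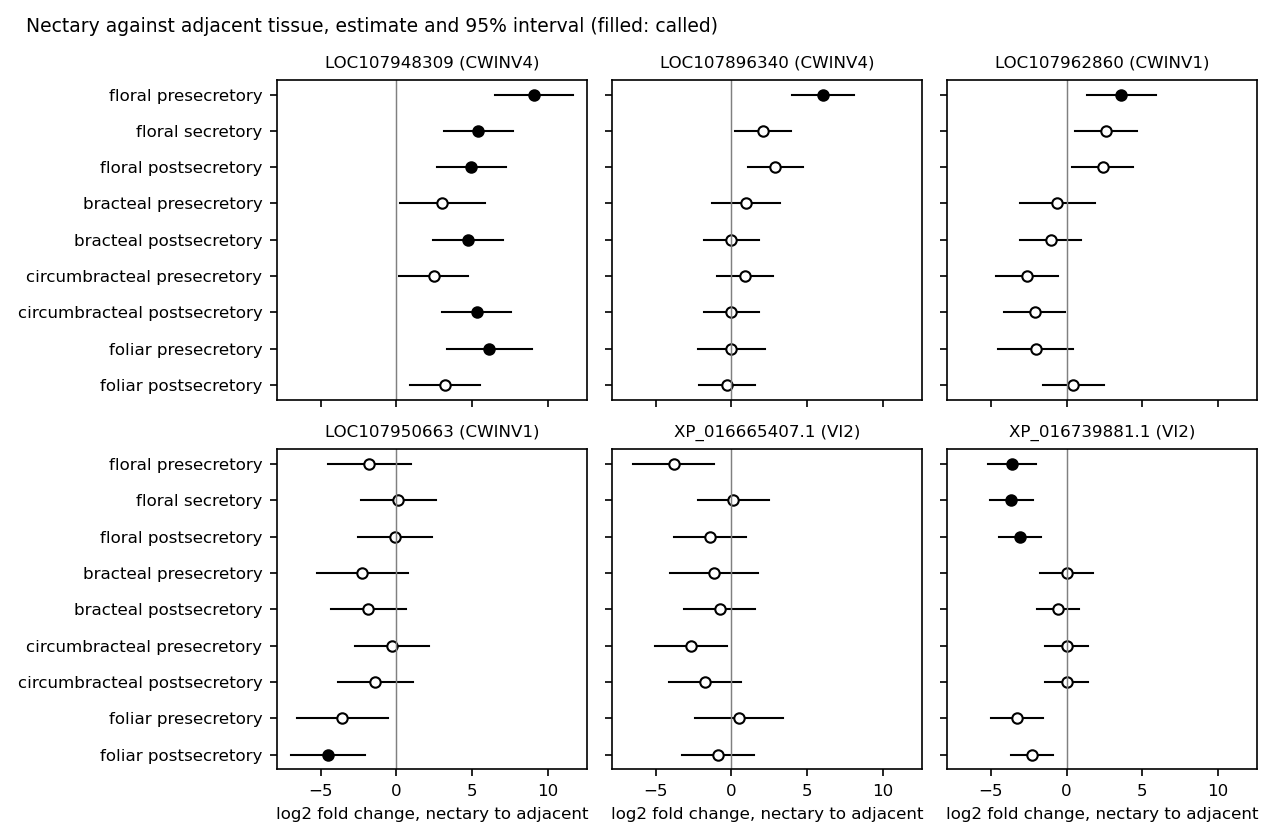
Log2 fold change between nectary and adjacent tissue with its 95% interval for 6 invertase rows in 9 comparisons. Filled points were called. CWINV4-matched points lay above 0 in the floral comparisons (9.08 for LOC107948309 before secretion), and vacuolar points below it except XP_016665407.1 in the secretory flower (0.13).

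LOC107946849 was at 2.05 and 0.950, then 3.65, 0.950 and 0, then 9.31, 0 and 1.05 in the floral nectary against 4.47 to 37.1 beside it. It was lower in the nectary before (-3.30, adjusted p = 0.00874) and during secretion (-2.39, adjusted p = 0.0383). The first call was lost without either nectary sample (adjusted p = 0.0562 and 0.104), and the second without nectary replicate 2 or 3 or adjacent replicate 1 or 2 (0.0969 to 0.247). In presecretory foliar nectary the vacuolar row with the highest mean was XP_016665407.1 (129), followed by LOC107896510 (73.9), which had its own highest mean there. LOC107896510 was at 66.1 and 81.6 before, 38.4 during and 3.35, 1.66 and 5.27 after secretion in the foliar nectary. Adjacent leaf was at 11.2 and 10.5, then 3.51, then 4.75, 1.76 and 1.86. The presecretory difference was 2.65 (95% interval 0.24 to 5.06, adjusted p = 0.587) and was not called. In postsecretory floral nectary the row was at 25.1, 36.7 and 5.23 against 3.96, 0.959 and 3.84 beside it, also not called (2.34, 95% interval 0.37 to 4.31, adjusted p = 0.229).

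From pre- to postsecretory stage vacuolar rows fell in several extrafloral tissues. In the foliar nectary 4 of the 21 rows fell and none rose, against 8.56% of all rows called lower, and all 4 were vacuolar: XP_016665407.1 by a log2 fold change of -4.40 (adjusted p = 0.021), XP_016721183.1 of -2.54 (0.0377), LOC107946849 of -3.78 (0.00186) and LOC107896510 of -4.16 (0.00841). Each of these calls was lost without 1 or more single samples, LOC107946849 only without presecretory nectary replicate 2 (adjusted p = 0.06). In the circumbracteal nectary 2 rows fell and 2 rose (10.1% and 12.4% of all rows). XP_016721183.1 and LOC107946849 fell there (-2.90, adjusted p = 0.00397 and -4.16, adjusted p = 7.92e-05), LOC107901479 rose as above, and LOC107896510 rose from 0 in all 3 samples to 23.6, 0 and 22.0 (adjusted p = 0.0204, lost without postsecretory replicate 1 or 3, adjusted p = 0.129 and 0.127). In the bracteal nectary no row was called by limma, with 4 under an unadjusted p of 0.05, where 4.58% of all rows were called.

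In adjacent tissue the same step gave 3 lower rows beside the bracteal nectary (4.02% of all rows), 2 higher (3.94%) and 2 lower (5.08%) beside the circumbracteal nectary and 2 higher (5.11%) and 3 lower (9.19%) beside the foliar nectary. XP_016721183.1 fell in each of these tissues, by -3.75 (adjusted p = 0.00343), -3.39 (0.00225) and -3.85 (0.000999), and LOC107946849 by -3.91 (0.0026), -2.93 (0.00918) and -4.15 (0.000467). The foliar calls of both held under all 11 alternatives. The bracteal call of XP_016721183.1 was lost without presecretory adjacent replicate 3 (adjusted p = 0.0572) and that of LOC107946849 without replicate 2 (0.051). The circumbracteal call of LOC107946849 was lost without presecretory adjacent replicate 1 or 3 (adjusted p = 0.0595 and 0.0594). XP_016665407.1 fell beside the bracteal nectary (-4.46, adjusted p = 0.0313), but not as a call without either presecretory sample or postsecretory replicate 1 or 3 (adjusted p 0.0765 to 0.206).

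Set directly against extrafloral nectaries, the floral nectary was higher mostly for cell wall rows. Before secretion 5 of the 21 rows were higher and 1 lower against the bracteal nectary (2.93% and 4.73% of all rows), 7 and 2 against the circumbracteal (13.8% and 7.26%) and 5 and 3 against the foliar nectary (3.43% and 7.25%). After secretion 5, 6 and 5 rows were higher (4.35%, 9.40% and 6.73% of all rows) and none lower. These comparisons share the floral samples. Against the circumbracteal nectary the median log2 fold change of all rows was itself 0.45 before and 0.32 after secretion. LOC107896340, XP_016716713.1 and XP_016716712.1 were called in all 6 comparisons, with LOC107896340 at 7.81 to 8.77 before and 8.29 after secretion. Their extrafloral groups were mostly listed at 0, so these fitted values depend on the 1 added before the logarithm and are no bound. These rows passed the filter through their floral values, so their calls here are no test of a floral difference. They are among the higher calls counted above for each comparison. LOC107948309 was higher than in the circumbracteal (4.77, adjusted p = 0.00627) and foliar nectaries (6.07, adjusted p = 0.00247) before secretion, and was called in none of the 3 comparisons after it. The circumbracteal call was lost without presecretory floral nectary replicate 1 (adjusted p = 0.106), and the foliar call without that sample or foliar nectary replicate 2 (0.0619 and 0.0596). LOC107962860 was higher than in the bracteal and circumbracteal nectaries at both stages (6.06 and 5.90 before, 4.95 and 4.54 after secretion). Its values there were low, 0.959 to 5.00 in bracteal and 0 to 23.9 in circumbracteal nectary, so these fitted values too depend on the 1 added. The vacuolar XP_016665407.1 was higher after secretion than in the bracteal (4.54, adjusted p = 0.0089) and circumbracteal nectaries (4.07, adjusted p = 0.0159). The first call was lost without postsecretory floral nectary replicate 2 (adjusted p = 0.0746), and the second without floral or circumbracteal nectary replicate 1 or 2 (0.073 to 0.091). Of the lower calls, XP_016721183.1 was -3.74, -4.13 and -3.89 before secretion, LOC107946849 was -3.32 and -2.79 against the circumbracteal and foliar nectaries, and LOC107896510 was -6.22 against the foliar nectary (adjusted p = 0.000331). The floral nectary samples were all at 0 for LOC107896510 before secretion.

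Whether the step from adjacent tissue to nectary itself differed between the floral and an extrafloral type was tested as an interaction. Before secretion 1 row was called with a larger floral step against the bracteal type (0.536% of all rows), 6 with a larger (2.29%) and 3 with a lower one (1.30%) against the circumbracteal type, and 3 with a larger one against the foliar type (0.442%). After secretion 1 row was called against the bracteal (0.784%) and 1 against the circumbracteal type (0.684%), both with a lower floral step. None was called by limma against the foliar type (1.82%), with 6 rows under an unadjusted p of 0.05. The 3 CWINV4 rows of the flower passed the filter through their floral values. Where such a row was listed at 0 in all extrafloral samples compared, the interaction only restates its floral step: LOC107896340 and XP_016716713.1 against the foliar and XP_016716712.1 against the bracteal type, and likewise the vacuolar XP_016739881.1 against the circumbracteal type. For LOC107948309 the presecretory interaction was called against the circumbracteal type (6.63, adjusted p = 0.0186) and against no other. That call was lost without floral nectary replicate 1 (adjusted p = 0.148), floral adjacent replicate 3 (0.0669) or circumbracteal adjacent replicate 3 (0.0593). Over the 5 CWINV4 rows the median presecretory interaction was 6.05 against the bracteal, 6.63 against the circumbracteal and 5.33 against the foliar type. By limma 5, 5 and 3 of these rows had an unadjusted p under 0.05. A call against 1 type only therefore does not show that the extrafloral types differ.

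The inhibitors of these enzymes were read in 6 rows. Between nectary and adjacent tissue 3 rows were lower at the presecretory (4.32% of all rows) and 2 at the secretory floral stage (5.35%), and 1 was higher in the presecretory circumbracteal nectary, where 7.16% of all rows were called in either direction. C/VIF1-matched LOC107895483 was at 79.8 and 82.6 in presecretory, 260, 62.7 and 4495 in secretory and 2976, 4405 and 7209 in postsecretory floral nectary. Beside it the row was at 688, 953 and 1300, then 2541, 1793 and 4728, then 3673, 3166 and 3863. LOC107916224, also matched to C/VIF1, was at 43.0 and 36.1, then 515, 160 and 3503, then 2426, 2919 and 5892, beside 667, 904 and 797, then 3029, 2297 and 6169, then 3678, 3638 and 4726. In the secretory nectary replicate 3 stood apart from the other samples for both. They were lower in the presecretory nectary (-3.53, adjusted p = 0.00313 and -4.28, adjusted p = 8.99e-06) and in the secretory one (-2.72, adjusted p = 0.0112 and -2.40, adjusted p = 0.00368). From secretory to postsecretory nectary they rose by 3.44 (adjusted p = 0.00318) and 2.39 (adjusted p = 0.00845). The C/VIF2-matched rows LOC107913590 and LOC107955295 were highest in presecretory extrafloral nectaries, with means of 186 and 115 in bracteal, 270 and 185 in circumbracteal and 203 and 70.3 in foliar nectary. In the postsecretory nectaries of these types their means were 0 to 3.52, and all 6 falls were called by limma, with adjusted p from 1.65e-08 to 0.000188. Of all rows, 4.58% were called in either direction in bracteal nectary, 10.1% lower in circumbracteal and 8.56% lower in foliar nectary. Extrafloral adjacent tissue held both rows too before secretion, with means of 60.5 and 66.7 (bracteal), 54.8 and 91.5 (circumbracteal) and 48.4 and 15.1 (foliar), and 0 after it. In floral adjacent tissue they reached 53.7 and 14.4, both after secretion, and in floral nectary at most 3.72 and 2.82. LOC107895674 and LOC107915841, also matched to C/VIF2, reached at most 63.5 and 48.4 in any sample.

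Neutral invertases, sucrose synthases and hexokinases were read as further lists of sucrose and hexose use. In presecretory floral nectary against adjacent tissue, where 3.67% of all rows were called higher, none of their rows was called lower. Of 14 neutral invertase rows tested, which act in the cytosol and organelles, 2 were higher there, both matched to CINV2: LOC107895101 (1.98, adjusted p = 0.00072) and LOC107904886 (adjusted p = 0.00575). Of 10 sucrose synthase rows, which cleave sucrose with UDP, 2 were higher there, with SUS4-matched XP_016673840.1 at 6.80 (adjusted p = 6.09e-11). Of 13 hexokinase rows, which phosphorylate the released hexoses, 4 were higher there, among them HXK1-matched LOC107932052 (1.29, adjusted p = 0.00876) and LOC107893309 (1.71, adjusted p = 0.00215). At the secretory stage, where 3.05% of all rows were called higher and 5.35% lower, 1, 1 and 0 rows of these lists were higher and 0, 1 and 0 lower.

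Among 22149 rows with a highest group mean of at least 100, those most like LOC107948309 over the 51 samples were LOC107937281, described as caffeic acid 3-O-methyltransferase-like (Pearson r 0.889), LOC107959985 and LOC107903807, both described as fructose-bisphosphate aldolase 3 (0.852 and 0.838), LOC107891500, described as arogenate dehydratase 2-like (0.842), and LOC107886614, described as spermidine synthase 1 (0.838). LOC107899251 was its closest invertase row (0.939). Those most like XP_016665407.1 were XP_016680558.1, glutathione S-transferase F12-like (0.808), XP_016746583.1, uncharacterized (0.804), LOC107950526, squalene epoxidase 3-like (0.796), XP_016665410.1, trehalose-phosphate phosphatase F (0.796) and LOC107936863 (0.793). The points share tissue, stage and library, so the values are descriptions.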

How the data were processed

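The deposited table held 49663 rows and 102 columns, 51 RNA samples in 2 runs each. The authors prepared TruSeq libraries for Illumina sequencing, and the study's methods do not say whether strand was kept. The deposited signal is whole numbers that behave as length-scaled, rounded read counts: of 6864 rows with at least 70 values from 1 to 12, 425 took at most 7 of the 12 whole numbers. The methods describe BLASTN mapping to an earlier cotton genome, but the rows carry NCBI proteins. The mapping and scaling behind this table are not given in the sources used here, so no count model was used, and depth in reads is unknown. Runs were summed (correlation at least 0.931), scaled to a common upper quartile and tested as log2(value + 1) with limma 3.58.1 in R 4.3.3, 1 coefficient per group, with a variance trend. The 48846 rows that reached 10 in 2 or more samples were tested, and p-values were adjusted by Benjamini-Hochberg within each of 31 comparisons. Fold changes are on that log2(value + 1) scale, which understates changes of low rows. The fit was tested on simulated data.

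Members and lists were chosen with earlier results of these data known. All 21 rows are accounted for. Rows with a highest group mean of at least 100 are plotted by sample and given by sample in the groups their results turn on, the rest by range or where called, and the 5 closest rows by correlation are named for the most abundant cell wall and vacuolar row. Pairing by replicate number was judged at stages with 3 samples in both groups. Same-numbered nectary and adjacent samples deviated together there, with every correlation over 0.1, at the secretory floral (0.166 to 0.31), postsecretory bracteal (0.168 to 0.328) and postsecretory foliar (0.175 to 0.208) stages. At the presecretory bracteal stage, with 2 samples in each group, both correlations were 0.28, and it was not counted as paired. Alternatives were 10 added before the logarithm, no filter, scaling to the total, each run alone, only the compared groups in the fit, a replicate block, and leaving out each replicate. The 18 labelled samples with no column in the table were not analysed here.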

Additional observations from a re-analysis of the deposited data

Results flagged for a closer look

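The step from adjacent tissue to nectary differed between the floral and an extrafloral type for 15 pairs of row and comparison, by the limma interaction. On the log2 scale, a larger presecretory floral step was found for LOC107896340 (5.14 against the circumbracteal and 6.03 against the foliar type), for XP_016716712.1 (6.25 against the bracteal, 6.88 against the circumbracteal and 5.33 against the foliar type) and for XP_016716713.1 (6.16 against the circumbracteal and 7.28 against the foliar type). For LOC107948309 (6.63), LOC107899251 (7.32) and LOC107962860 (6.24) it was called against the circumbracteal type and not against the others. That does not show a circumbracteal trait: the median of the 5 CWINV4 rows was 6.05 against the bracteal type, with all 5 under an unadjusted p of 0.05 by limma. A lower presecretory floral step than in the circumbracteal type was found for the vacuolar rows XP_016721183.1 (-4.40), LOC107946849 (-4.97) and XP_016739881.1 (-3.60). XP_016721183.1 was also lower after secretion, by -4.85 against the bracteal and -4.27 against the circumbracteal type. LOC107896340 and XP_016716713.1 were listed at 0 in all presecretory foliar samples, XP_016716712.1 in all presecretory bracteal samples and XP_016739881.1 in all circumbracteal samples. There the value only restates the floral step, and the CWINV4 rows among them passed the filter through their floral values. The circumbracteal nectary had the widest spread between replicates.

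The single secretory foliar nectary sample entered no comparison. LOC107948309 was at 196.7 in it, LOC107899251 at 20.41 and LOC107896340 at 2.449, above the highest of the 6 foliar adjacent samples, which were at 24.6, 7.02 and 0.878. For LOC107896340 both values lie near the floor, and every pre- and postsecretory foliar nectary sample was listed at 0.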

How the results depend on the processing

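Of the 109 row-by-comparison calls, 109 were kept with no filter on low values, 103 with 10 added before the logarithm, 102 with either run alone, 99 with scaling to the column total and 47 with only the compared groups in the fit, which leaves fewer samples to estimate the spread. No call changed direction. Leaving out 1 sample at a time kept 473 of 662. Depth in reads is unknown, so low rows carry no counting interval.

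The counts of invertase rows called that moved are given next, as the value under the alternative and, in brackets, the value in the report. With only the compared groups in the fit, nectary against adjacent tissue gave 2 (8) at the secretory floral, 1 (5) at the postsecretory floral, 0 (2) at the postsecretory circumbracteal, 0 (1) at the presecretory foliar and 0 (2) at the postsecretory foliar stage. By stage that fit gave 0 (2) from secretory to postsecretory floral nectary, 0 (4) in circumbracteal nectary, and in adjacent tissue 0 (1) for the same floral step, 1 (3) beside bracteal and 0 (4) beside circumbracteal nectary. Floral against extrafloral nectary gave 0 (6) bracteal, 4 (9) circumbracteal and 5 (8) foliar before, and 3 (6) circumbracteal and 9 (5) foliar after secretion. The interactions gave 1 (9) circumbracteal and 5 (3) foliar before, and 0 (1) bracteal, 0 (1) circumbracteal and 1 (0) foliar after secretion.

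With 10 added, nectary against adjacent tissue gave 1 (0) at the presecretory circumbracteal and 3 (1) at the presecretory foliar stage. The stage steps gave 1 (0) from presecretory to secretory and 5 (2) from secretory to postsecretory floral nectary, 1 (0) in bracteal nectary, 3 (1) in floral adjacent tissue from secretory to postsecretory and 9 (5) beside foliar nectary. Floral against foliar nectary after secretion gave 9 (5), and the interactions 7 (1) bracteal and 7 (3) foliar before and 3 (1) circumbracteal and 1 (0) foliar after secretion. Scaling to the total gave 2 (1) in presecretory foliar nectary against adjacent tissue, 1 (0) across bracteal nectary stages and 2 (0) for the postsecretory foliar interaction, a level of LOC107950663 in its highest group of 790.3 (557.8), and a level of LOC107962861 in its highest group of 166.5 (119.6). Run 1 alone gave 4 (2) in postsecretory foliar nectary against adjacent tissue, 1 (0) across bracteal nectary stages, 2 (4) across circumbracteal nectary stages, 2 (4) beside them and 3 (1) for the presecretory bracteal interaction. Run 2 alone gave 1 (0) across bracteal nectary stages, 2 (1) in floral adjacent tissue from secretory to postsecretory, and 2 (1), 0 (1) and 0 (1) for the presecretory bracteal, postsecretory bracteal and postsecretory circumbracteal interactions. The causes were not tested.

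With replicate number as a block, 35 of 40 calls were kept, and the counts moved to 8 (5) in postsecretory floral nectary, 1 (0) in presecretory circumbracteal nectary and 2 (1) for the presecretory bracteal interaction, where samples share only a number. At the 3 paired stages it changed the calls given in the report and no other. No block was fitted for presecretory foliar tissue, whose samples share only 1 number, or for comparisons between stages or between nectary types, whose samples were different pools.

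Leaving out each replicate in turn gave, for nectary against adjacent tissue, 6 to 9 rows at the presecretory floral, 3 to 8 at the secretory floral, 0 to 7 at the postsecretory floral, 0 to 1 at the presecretory and 0 to 2 at the postsecretory bracteal, 0 to 2 and 1 to 3 at the circumbracteal, and 0 to 0 and 1 to 2 at the foliar stages. Stage steps gave 0 to 0 and 0 to 4 in floral, 0 to 1 in bracteal, 2 to 5 in circumbracteal and 0 to 3 in foliar nectary, and 3 to 3, 0 to 3, 1 to 3, 1 to 5 and 2 to 6 in adjacent tissue in that order. Floral against bracteal, circumbracteal and foliar nectary gave 4 to 5, 7 to 10 and 4 to 8 before and 4 to 5, 5 to 6 and 4 to 5 after secretion. The interactions gave 0 to 3, 3 to 9 and 0 to 3 before and 1 to 1, 0 to 2 and 0 to 1 after it.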
